A study of Capra hircus and Bos taurus with 7 samples.

Results

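Vesicle-borne miR-103, miR-107 and miR-378 were followed through milk powder libraries of small RNA. The rows were taken from the deposited tables by name, as every row whose name without the bovine prefix and arm is miR-103, miR-107, miR-378, miR-378b, miR-378c or miR-378d. The rows bta-miR-103, bta-miR-107, bta-miR-378, bta-miR-378b, bta-miR-378c and bta-miR-378d were all present (6 of 6), and the prefix is left out from here on. They stand among 364 mature microRNAs (miRNAs) per library, and 0 of the 6 carried an arm suffix. Powders had been reconstituted in warm water, extracellular vesicles (EVs, small membrane-enclosed particles shed by cells) had been purified from them by size exclusion chromatography, and the small RNA of the vesicles was sequenced. Of its 7 libraries, 3 were of whole and 3 of skimmed powder from goat (Capra hircus), and 1 was of a commercial powder from cow (Bos taurus). The labels give no breed, age, lot or processing of the milk, and they do not say whether the letters A to C of the goat libraries are packs, batches or repeat isolations, so a p-value here is set by the spread of these libraries alone, and that spread may be technical. A powder is a manufactured product, and the labels do not tie a library to an animal.

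A miRNA is a short RNA that guides Argonaute proteins to complementary sites in mRNAs, and the bases near its 5′ end, the seed, carry most of that recognition. miR-103 and miR-107 differ by a single base near the 3′ end and share their seed, and in mammals they are encoded in introns of the pantothenate kinase genes (PANK), whose products start coenzyme A synthesis. miR-378 is encoded in an intron of PPARGC1B, the gene of the transcriptional coactivator PGC-1β, which acts on mitochondrial and lipid metabolism genes. All are known for roles in metabolism: miR-103 and miR-107 act on caveolin-1 and insulin sensitivity in liver and fat, and miR-378 on fatty acid oxidation. miR-378b, miR-378c and miR-378d are names of sequences related to miR-378.

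The goat genes of 3 members lie within metabolic genes. In RefSeq's gene table for the goat assembly ARS1.2, MIR103 lay within the bounds of PANK2, MIR107 within PANK1 and MIR378 within PPARGC1B. The other 3 names, miR-378b, miR-378c and miR-378d, were not matched in that table. It was used only for which genes neighbour each other, since no source used here gives the build behind the counts, and the table gives no strand and does not separate introns from exons. No host gene mRNA was measured.

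Library totals ran from 5675489 to 11963849 reads. Libraries of one powder differed far beyond counting noise (497 to 1640 chi-square units per degree of freedom), and none was a copy of another. The labelled material was checked against cell type markers. All 6 epithelial miRNAs looked for were present in goat and took 9.84% to 11.4% of the reads of each goat library and 10.6% of the bovine library. Muscle names, of interest because miR-378 is abundant in muscle, had 2 rows here, miR-499 and miR-1, which took 0.00800% to 0.0309% of goat reads, and liver miR-122 took at most 0.00499%. Leukocyte rows took 0.275% to 0.338%, nerve rows 0.0447% to 0.0907% and the 1 erythroid row, miR-486, at most 0.00728% of goat reads. Most of the nerve share was miR-128, which is also on the list of miRNAs within protein-coding genes used below. It had 4532.5 to 7613 reads per goat library, against 0 to 834.5 for miR-9, 0 to 61.3 for miR-124a and 0 to 30.7 for miR-124b. The miR-124a and miR-124b rows were at 0 in skimmed powder. The nerve total therefore does not show a level of the listed nerve rows in general. In the bovine library the leukocyte rows took 0.0105%, the nerve rows 0.0246% and the muscle rows 0.000176%, all below the goat libraries. The leukocyte totals differed in make-up. miR-155 had 8670 to 15888 and miR-223 7945 to 13952 reads per goat library, against 44 and 65 in the bovine library. There miR-142-5p led with 487 reads, against 1065 to 3527 per goat library. Between the goat powders the leukocyte share did not overlap, at 0.275% to 0.287% in whole and 0.316% to 0.338% in skimmed powder. Nor did the epithelial share, at 9.84% to 10.37% in whole and 10.45% to 11.38% in skimmed powder. Single rows of both lists went both ways. Of the 4 leukocyte rows tested between powders, 2 were higher and 2 lower in skimmed powder, and of the 6 epithelial rows 3 were higher and 3 lower. Among all 209 miRNAs tested, 20.1% did not overlap between the powders. The part of these markers in the members' values was not tested.

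miR-103 was by far the most abundant of the 6. In counts-per-million of miRNA reads (CPM), it stood at 7576, 9631 and 8272 CPM in whole powder A, B and C, at 6017, 7690 and 6254 CPM in skimmed powder A, B and C, and at 2355 CPM in the bovine powder. The goat libraries overlapped between powders, since skimmed B lay above whole A, and the bovine library was below them all. miR-103 ranked between place 22 and 28 among the miRNAs of each goat library and at place 40 in the bovine one. By mean over the goat libraries it was at place 27, next to miR-22-3p and miR-3600 above it (7798 and 7819 CPM) and miR-10174-3p and miR-186 below it (6506 and 6343 CPM). Its goat mean was 7573 ± 1334 CPM (SD, n = 6).

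miR-378 followed at a lower level. Reads of different miRNAs are compared here as counted, without correction for how well each is captured by the library kit. The miRNA stood at 984, 720 and 1012 CPM in whole A, B and C, at 574, 712 and 568 CPM in skimmed A, B and C, and at 254 CPM in bovine powder. Whole A and C were highest, whole B and skimmed B lay close together below them, and skimmed A and C were lowest. The powders did not overlap, by a gap of whole B over skimmed B of 1.01-fold (95% interval 0.977 to 1.05, counting error only), and they did overlap once the libraries were scaled by TMM (trimmed mean of M-values). By mean goat level miR-378 was at place 74, between miR-409b (788 CPM) and miR-494 (716 CPM).

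miR-107 was rare and uneven. It had 123.3, 129.6 and 214.6 reads in whole A, B and C, or 18.8, 12.8 and 17.9 CPM. In skimmed A, B and C it had 31.67, 482.3 and 79.67 reads, or 3.41, 58.2 and 10.02 CPM, and in the bovine library 206.9 reads, or 36.4 CPM. The highest and the lowest goat library were both skimmed powder. Skimmed B over skimmed A gave a ratio of 16.9 (95% interval 11.8 to 24.96, exact for counts), against a highest-to-lowest ratio of 1.60 for miR-103 and 1.78 for miR-378 over the same 6 libraries. Such intervals cover counting error only, because without molecular identifiers several PCR reads can come from 1 molecule.

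**Figure D1:**
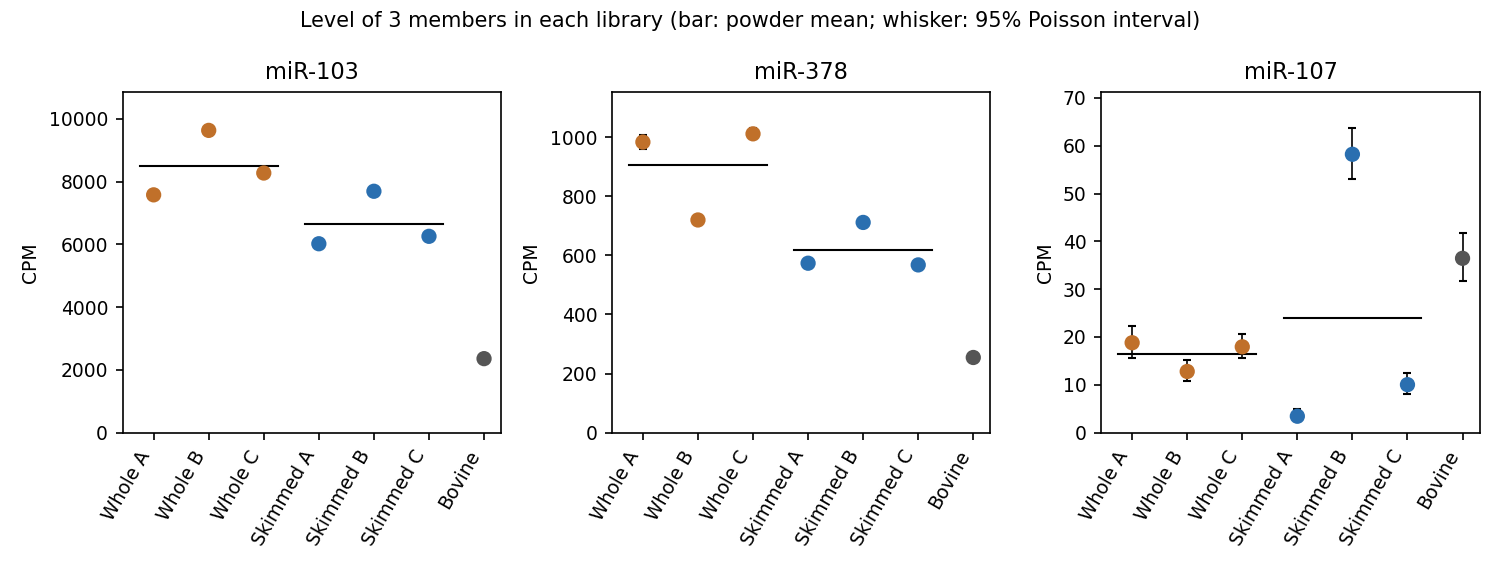
Level of miR-103, miR-378 and miR-107 in CPM (vertical axes, each from 0) in each of the 7 libraries, with 95% Poisson whiskers, and the mean of each goat powder as a horizontal bar. The bovine point is lowest for miR-103 (2355 CPM) and miR-378 (254 CPM), and for miR-107 the skimmed B point stands alone at 58.2 CPM.

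The other miR-378 names were near absent outside 2 libraries. miR-378c had 43.83 and 136.4 reads in whole A and whole C but 1.119 in whole B, 1.397, 1 and 0.3429 in skimmed A, B and C, and 0.8429 in bovine powder. Whole A and C were also the libraries with the highest miR-378. Pooled over libraries, whole exceeded skimmed powder by a ratio of 53.7 (95% interval 18.1 to 263, exact for 181 against 3 rounded reads), with whole B at the level of the skimmed libraries. Without whole C, an alternative chosen after seeing the data, the ratio was 22.9 (95% interval 7.36 to 115). Outside whole A and C, miR-378c stood at 0.378% to 1.32% of its CPM in whole C, bovine powder included. The labels do not say whether the libraries shared a sequencing run, and whether reads of one library entered another was not tested, so values near 1 read may not be reads of that library. miR-378b had 19.67, 1.333 and 5.333 reads in whole A, B and C and at most 1 read in any skimmed library, which pooled to 23.2 times the skimmed level (95% interval 3.803 to 949, exact for 26 rounded reads against 1). Most of these reads were in whole A, without which the ratio was 8.08 (95% interval 1.04 to 364); these intervals leave out the spread between libraries. miR-378d never reached 1 read, with its highest value, 0.45 reads, in whole B. Counts of these rows are estimates and partly fractional, and how reads matching several names were divided is not known. Whether they hold reads shared with the far more abundant miR-378 row was not tested. The intervals take them as whole reads of these names. A count of 0, as for miR-378b in the bovine library, allows up to 3 reads, or 0.529 CPM (a one-sided limit; the two-sided 95% Poisson interval ends at 0.650 CPM). Because of these low values 3 of the 6 rows, miR-103, miR-107 and miR-378, passed the filter on low counts, and the miR-378b, miR-378c and miR-378d rows were not tested.

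Together the 6 rows took 0.942% ± 0.0893 of miRNA reads in whole, 0.730% ± 0.102 in skimmed (SD, n = 3 each) and 0.265% in bovine powder, nearly all of it miR-103. The balance within the group was then compared, since a ratio within a library does not depend on its total. The 2 PANK miRNAs were far from a fixed ratio. miR-107 made up 0.247%, 0.132% and 0.216% of the reads of the pair in whole A, B and C, 0.0566%, 0.751% and 0.160% in skimmed A, B and C, and 1.52% in bovine powder. The bovine share was above that of every goat library, and the goat shares followed no powder. On the log2 scale the ratio of miR-103 to miR-107 was 9.02 ± 0.48 in whole and 9.04 ± 1.88 in skimmed powder (SD, n = 3), a difference of 0.02 (exact two-sided permutation p = 1; 3 libraries against 3 allow no p below 0.1). That difference turned to -0.86 without skimmed A and to 1.01 without skimmed B.

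Names that differ in few bases can share reads when counts are divided between them, so the pair was set beside other pairs of like names, picked after their values were seen. The log2 ratio of miR-103 to miR-107 ran over 4.77 units across the 7 libraries, from 6.01 to 10.78. It ran over 0.69 units for miR-16a and miR-16b, 0.09 for miR-148a and miR-148d, 0.01 for miR-22-3p and miR-3600 and 0.0032 for miR-26a and miR-26c. The rows of those other pairs are abundant in goat powder, whereas miR-107 is at a level where wide ranges were usual, so the pairs differ in more than their names. No source used here says how reads matching both names were assigned, so the level of the rare miR-107 is uncertain. The sum of both rows is free of that division, and with 8509 ± 1042 CPM (whole) and 6678 ± 935 CPM (skimmed; SD, n = 3) it was nearly the value of miR-103 itself.

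miR-378 against the PANK pair was steadier. Its share of the reads of the 3 miRNAs was 11.5%, 6.95% and 10.9% in whole A, B and C, 8.70%, 8.41% and 8.31% in skimmed A, B and C, and 9.61% in bovine powder. The skimmed libraries lay within the range of the whole ones, and so did the bovine library. The log2 ratio of miR-378 to the pair was -3.24 ± 0.44 in whole and -3.43 ± 0.04 in skimmed powder (SD, n = 3), a difference of -0.19 (exact two-sided permutation p = 0.4, or 0.6 adjusted over the 3 permutation tests made). It rested in size on the whole libraries, at -0.04 without whole A, -0.09 without whole C and -0.44 without whole B. The ratio itself lay at -3.23 in bovine powder, inside the goat range of -3.74 to -2.95.

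**Figure D2:**
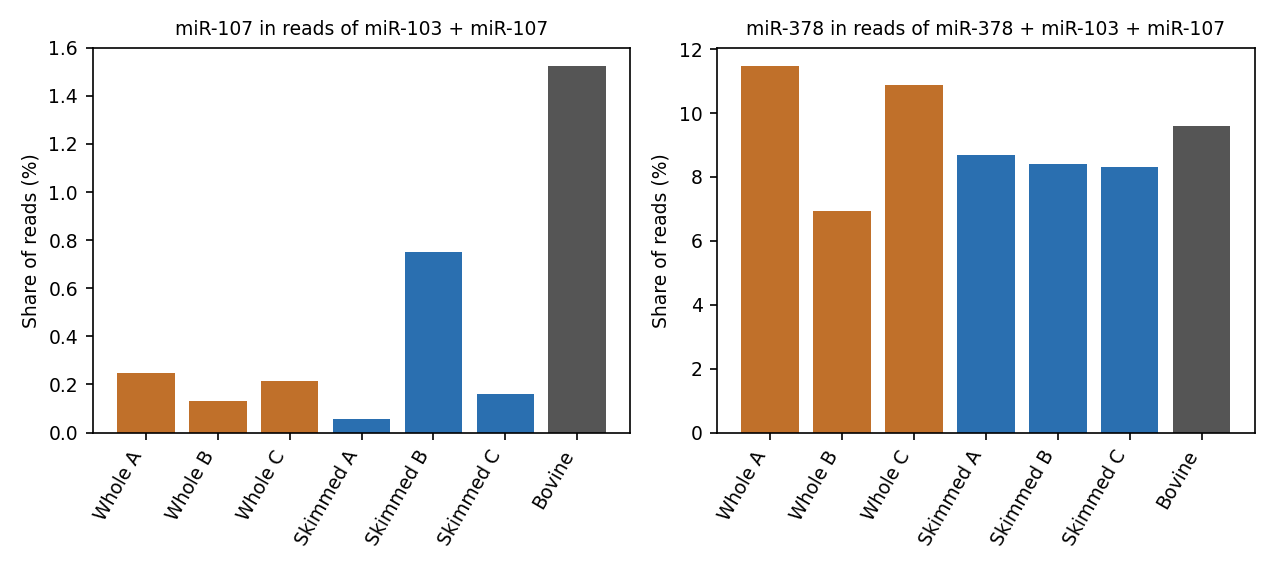
Left, the share (%) of miR-107 in the reads of miR-103 and miR-107; right, the share (%) of miR-378 in the reads of miR-378, miR-103 and miR-107; 1 bar per library. The left bars run from 0.0566% in skimmed A to 1.52% in bovine powder, while the right bars stay between 6.95% and 11.5%.

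The first comparison asked whether powder labelled skimmed differs from powder labelled whole. Neither miR-103 nor miR-378 passed the test, although both had values below 0, and miR-107 had an error larger than its value. The mean of miR-103 was 8493 ± 1045 CPM for whole and 6654 ± 905 CPM for skimmed powder (SD, n = 3). Its log2 fold change was -0.26 ± 0.13 (SE), and the quasi-likelihood test of edgeR gave an adjusted p of 0.52 (Benjamini-Hochberg, over 209 miRNAs); the value was -0.42 with upper-quartile scaling, also short of the threshold. For miR-378 the means were 905 ± 161 and 618 ± 81.5 CPM (SD, n = 3), its log2 fold change was -0.47 ± 0.24 (SE), and edgeR again gave an adjusted p of 0.52. For miR-107 they were 16.5 ± 3.25 and 23.9 ± 29.9 CPM, its log2 fold change was 0.60 ± 1.46 (SE), and the adjusted p from edgeR was 0.96. The sign of its value rested on skimmed B, without which it was -1.22 ± 1.84 (SE; edgeR adjusted p = 0.95).

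These values are read against all miRNAs tested. The test called 1 of 209, or 0.478%, and 0 of the 3 members. In this fit 22 of the 209 had an unadjusted p under 0.05, none of them a member, and the median log2 fold change over the 209 was 0.03. In some other settings miR-103 and miR-378 had an unadjusted p under 0.05. In edgeR it was 0.0096 and 0.028 with upper-quartile scaling, and 0.033 and 0.047 with library totals. For miR-103 alone edgeR also gave 0.039 with the replicate block, 0.045 with no filter, 0.045 without whole A and 0.029 without skimmed B. For miR-378 alone it gave 0.025 without whole B. In the remaining settings neither was under 0.05. No member had an adjusted p under 0.05 in any setting. The powders did not overlap in CPM for 20.1% of the 209 in either direction, and for 10.5% with all skimmed below all whole libraries; miR-378 was the 1 member of 3 that belonged there. The rows of miR-103 and miR-107 summed differed by -1831 CPM between skimmed and whole powder (exact two-sided permutation p = 0.2, or 0.6 adjusted over the 3 permutation tests). A p that misses the threshold does not show that the powders were alike.

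**Figure D3:**
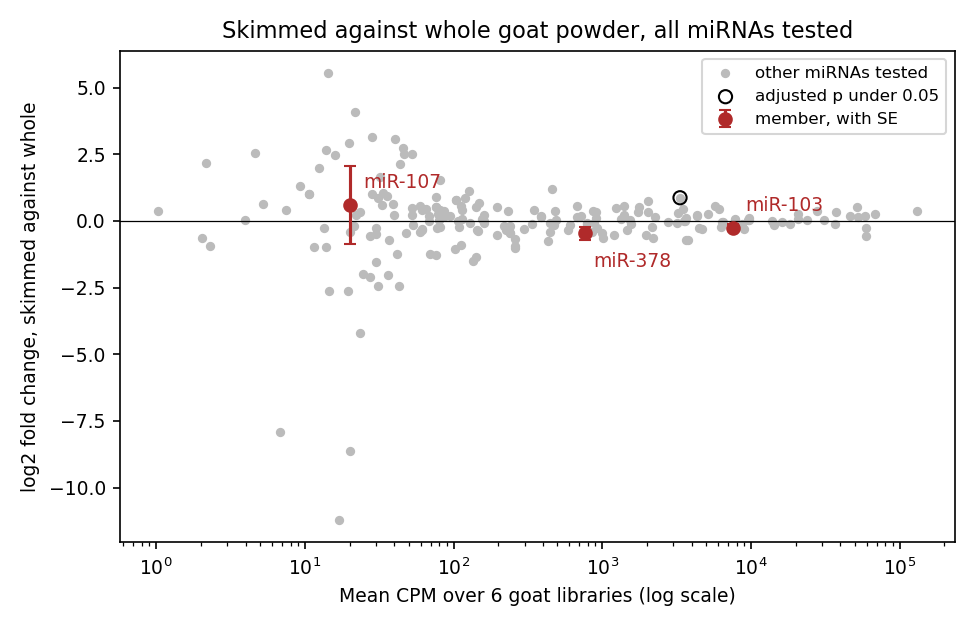
log2 fold change of skimmed against whole goat powder (vertical axis) against mean CPM over the 6 goat libraries (horizontal, log scale) for the 209 miRNAs tested, with miR-103, miR-378 and miR-107 in red with their SE. miR-103 (-0.26) and miR-378 (-0.47) lie below 0 in the narrow part of the cloud and miR-107 (0.60) in its wide low part, and the circled miRNA is the 1 past the threshold.

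Precision followed abundance. For the 64 miRNAs at 1000 CPM or more the log2 fold changes had a median SE of 0.15, and for the 83 below 100 CPM it was 1.84. Within powders, the SD of log2(CPM + 1) was 0.18 for miR-103, where the 33 other miRNAs within 3-fold of its level had a median of 0.16. It was 0.23 for miR-378, against 0.34 for 46 such miRNAs, and 1.36 for miR-107, against 2.31 for 92. The uneven libraries of miR-107 were therefore no more uneven than those of most miRNAs at its level, of which 82 of 92 had a larger SD.

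Other miRNAs that lie in introns or act in metabolism were counted from lists. Of 33 tested rows of miRNAs known from within protein-coding genes, 1 rose in skimmed powder and 0 fell, with 17 values above 0, 16 below 0 and a median of 0.01. The one that rose was miR-25, encoded in MCM7 with miR-93 and miR-106b, with means of 2456 ± 248 CPM (whole) and 4214 ± 572 CPM (skimmed; SD, n = 3). Its log2 fold change was 0.87 ± 0.13 (SE), at an adjusted p of 0.035 from edgeR. The call did not hold in edgeR without whole A, B or C (adjusted p of 0.073, 0.16 and 0.082) or skimmed B or C (0.24 and 0.12), nor with scaling by library totals (0.059), upper quartiles (0.075) or DESeq2 size factors (0.058), with let-7a-5p left out (0.057) or with the replicate block (0.11). It held without skimmed A (0.035), with no filter (0.028), above 100 CPM (0.011), with the summed miR-103 and miR-107 rows (0.036), in limma-voom (0.037) and in DESeq2's Wald test (5.65e-05), and the log2 fold change stayed between 0.72 and 0.94 in all these fits. miR-93 and miR-106b had log2 fold changes of -0.07 ± 0.41 and -0.38 ± 0.65 (SE), neither past the threshold. The most abundant of the list, miR-26a, miR-26c and miR-191, had log2 fold changes of -0.11, -0.11 and -0.01, none past the threshold. Of 34 rows of this list and the members that matched a goat gene by name, 32 lay within a protein-coding gene of that table, and miR-101 and miR-191 did not. A split of all tested rows by that table, added after the values were seen, gave a median log2 fold change of 0.01 for the 53 within protein-coding genes, 0.03 for the 86 outside and 0.09 for the 70 with no goat gene of that name matched.

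Of miRNAs with reported roles in lipid and energy metabolism, 18 rows were tested and 0 passed in either direction, with 10 values below 0 and a median of -0.06. Their reads took 4.07% ± 0.130 of whole and 4.51% ± 0.162 of skimmed powder (SD, n = 3). Most of this share was miR-375, which is also on the epithelial list and had the higher mean in skimmed powder. The total therefore does not show a rise of the listed rows in general. The most abundant were miR-375, a miRNA of secretory epithelia and pancreatic islets, with means of 25161 ± 1291 CPM (whole) and 30579 ± 2844 CPM (skimmed), then miR-27b, which acts on adipocyte differentiation, and miR-182. Their log2 fold changes were 0.38, -0.08 and -0.03, none past the threshold. Of the miR-15 and miR-16 group, whose seed overlaps that of miR-103 and miR-107 by an offset, 4 rows were tested and 0 passed. Its leading rows were miR-16a, at 9892 ± 298 and 9451 ± 969 CPM in whole and skimmed powder, miR-16b, at 9776 ± 167 and 9403 ± 960 CPM, and miR-15b, at 261 ± 98.0 and 192 ± 93.0 CPM (SD, n = 3 each).

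The bovine powder is a single library of another species and product, so the difference has no replicate check and no test was made. Both abundant members were about 3-fold lower there. The bovine level of miR-103, 2355 CPM with a 95% Poisson interval from 2316 to 2396, was 3.22-fold lower than the goat mean of 7573 ± 1334 CPM (SD, n = 6) and below the lowest goat library (6017 CPM). That of miR-378, 254 CPM with an interval from 241 to 268, was 2.995-fold lower than the goat mean of 762 ± 195 CPM (SD, n = 6) and also below the lowest goat library (568 CPM). miR-107 went the other way, with 36.4 CPM (interval from 31.7 to 41.8) in bovine and a mean of 20.2 ± 19.5 CPM (SD, n = 6) in goat powder, inside the goat range of 3.41 to 58.2 CPM. As the labels differ in species, product and library at once, these cannot be told apart.

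Being lower in bovine powder was common. Among 202 miRNAs with an average of the goat mean and the bovine level of at least 10 CPM, 51.5% were more than 2-fold lower in the bovine library, as were 2 of the 3 members among them, and 47% lay below all goat libraries, as did the same 2. The median log2 fold of bovine over goat was -1.26 for the 202, against -1.69 for miR-103 and -1.58 for miR-378. That median covers a mixed set, because 78 of the 202 stood at under 5% of their goat mean, a limit set after the values were seen, and the doubt about reads shared between libraries touches these low bovine values too. miR-103 stood at 31.1% and miR-378 at 33.4% of the goat mean. The miR-15 and miR-16 rows stood lower than the members: miR-16a had a goat mean of 9672 CPM and 458 CPM in the bovine library, and its list took 0.0743% of bovine reads against 1.77% to 2.13% in goat.

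**Figure D4:**
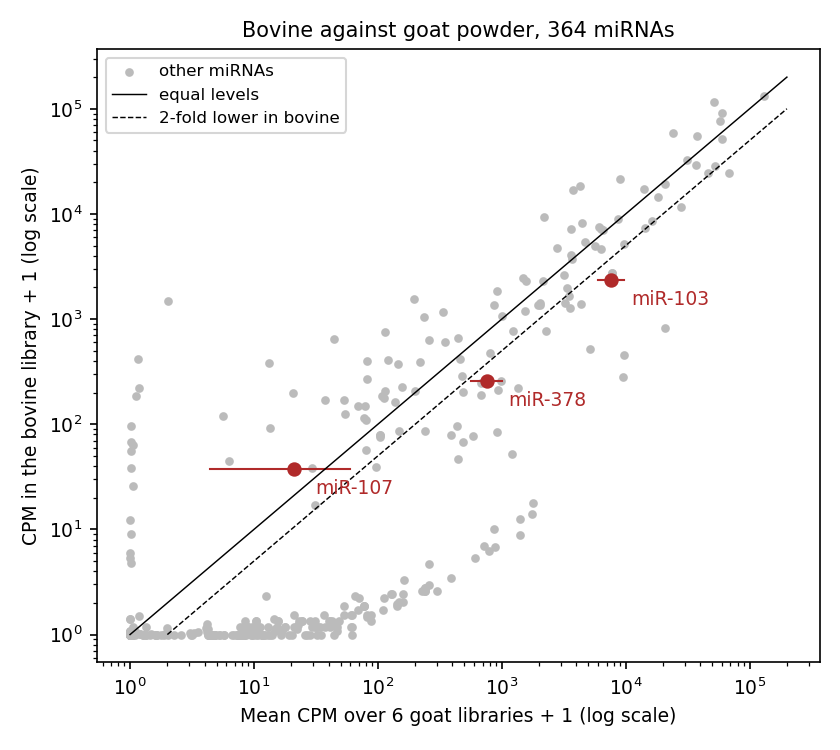
CPM + 1 in the bovine library (vertical, log scale) against the mean CPM + 1 over 6 goat libraries (horizontal, log scale) for 364 miRNAs, with miR-103, miR-378 and miR-107 in red and the range of their goat libraries as a horizontal line. miR-103 and miR-378 lie under the dashed line of a 2-fold lower bovine level, well above the band of miRNAs near absent in bovine powder, and miR-107 lies above the line of equal levels.

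The miRNAs whose pattern was most like each member were found by the root mean square difference of log2(CPM + 1), centred on each miRNA's mean, over the 7 libraries and among miRNAs at a goat mean of 100 CPM or more (125 for miR-103 and miR-378, 126 for miR-107). This is a description of levels that share library totals. For miR-103 the nearest were miR-148b at 0.24, miR-378 at 0.25 and miR-181a at 0.26, where the median of all was 0.85. For miR-378 they were miR-101 at 0.23, miR-103 at 0.25 and miR-148b at 0.31, with a median of 0.86. Over the 7 libraries each of these 2 members was thus the second nearest to the other. For miR-107 the nearest, miR-532, was at 0.93 with a median of 1.34, followed by miR-1839 at 0.95 and miR-30e-5p at 0.97. Its near-identical partner miR-103 was not among the 3. Rare miRNAs at the level of miR-107 were outside this comparison. With an SD of log2(CPM + 1) within powders of 1.36, against 0.18 for miR-103, miR-107 had to differ widely from steady miRNAs. These values therefore do not show whether its pattern was unusual. Over the 6 goat libraries alone the difference between miR-103 and miR-378 was 0.27, and miR-101 (0.22) and miR-148b (0.26) were both nearer to miR-378 than miR-103 was, as miR-148b was to miR-103 (0.20). Goat-only differences are given only for miRNAs picked over the 7 libraries, without a median or rank over all candidates. How near the 2 members are within goat is therefore not settled here.

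**Figure D5:**
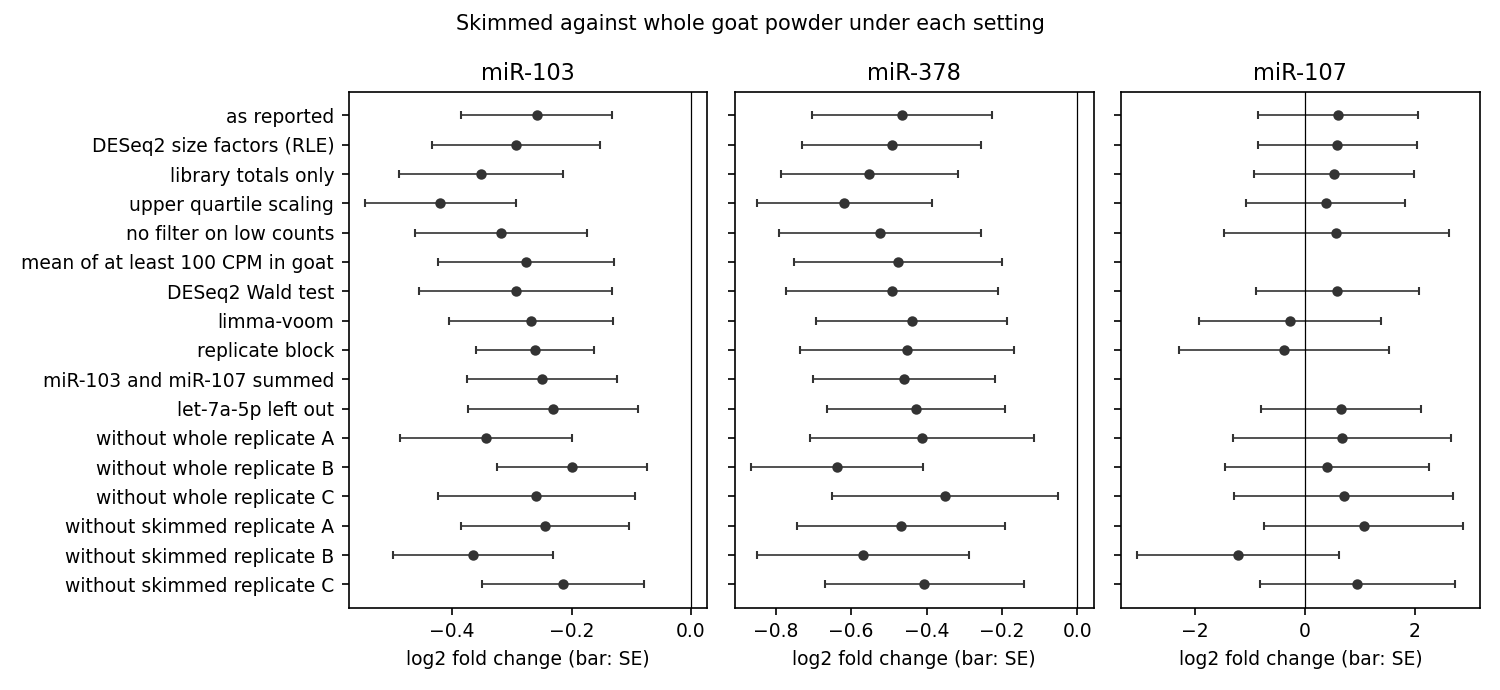
log2 fold change of skimmed against whole powder (horizontal axis, with SE bars) for miR-103, miR-378 and miR-107 under each way of scaling, filtering, testing or leaving out a library (rows). All points lie below 0 for miR-103 (-0.42 to -0.20) and miR-378 (-0.64 to -0.35), and the points of miR-107 lie on both sides of 0 (-1.22 to 1.08).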

How the data were processed

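Small RNA of milk powder vesicles was sequenced as single-end reads of 50 bases after gel size selection, per the labels' protocols. The deposited values are estimated counts per mature miRNA under bovine names, per the file headers. They are not normalized and partly fractional (36.9% to 46.7% of values above 0 were whole within 1e-06). No source used here gives the aligner, counter, miRNA reference or build. CPM were computed here over all 364 rows of a library. For tests, counts were rounded and fitted over the 6 goat libraries in R 4.3.3 with edgeR 4.0.16 (default low-count filter, 209 miRNAs kept; TMM factors 0.928 to 1.067; quasi-likelihood test; Benjamini-Hochberg adjustment; threshold 0.05). The SE is the size of the log2 fold change over the square root of F. Alternatives used DESeq2 1.42.0, limma 3.58.1 and other settings.

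The members and lists were chosen with earlier results of these data known. Named beside the members are the 3 most abundant of each list and any past the threshold, the miRNAs next in level, and the 3 nearest in pattern. Markers are given as list totals, with single rows where a total rests on few of them. miR-101 and miR-191 are also named as exceptions to a count, miR-93 and miR-106b as encoded with miR-25, and the like-named pairs as stated. Host genes came from RefSeq's table for ARS1.2. Tested on simulated data of 209 miRNAs, the fit recovered 82.4% of 2-fold changes at or above 1000 CPM and 3.6% below, and 99.2% and 20.2% of 4-fold changes. The lower class holds miR-378, with an SE of 0.24, beside miRNAs below 100 CPM, with a median SE of 1.84. Its percentages therefore do not give the recovery for miR-378. Mature sequences were not analysed here.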

Additional observations from a re-analysis of the deposited data

Results flagged for a closer look

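Over the 6 goat libraries, skimmed B stood apart for miR-107, at 58.22 CPM, with a gap to the next library of 0.719 of the whole range, above Dixon's 95% limit for 6 libraries. Whole A stood apart for miR-378b, at 2.997 CPM, with a gap of 0.851 of the range. Of 8 items checked 3 passed this limit; the other one, miR-378d, is under 3 reads in every library and is not listed. Chance flags about 1 in 20 groups, and the goat libraries were pooled over both powders for this check.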

How the results depend on the processing

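The log2 fold change of skimmed against whole powder stayed below 0 and short of the threshold for miR-103 (-0.42 to -0.20) and miR-378 (-0.64 to -0.35) in all 16 alternatives each; edgeR and limma adjusted p ran from 0.17 to 0.70 for miR-103 and from 0.22 to 0.93 for miR-378, and DESeq2 gave an adjusted p to 71 miRNAs only, with miR-103 at 0.23 and none for miR-378 or miR-107. For miR-107 the value reversed to -0.27 with limma-voom, to -0.38 with the replicate block and to -1.22 without skimmed B (-1.22 to 1.08 over the 6 fits that leave out a library); the cause was not tested. The number of miRNAs called, 1 as reported, was 0 with the replicate block, let-7a-5p left out, or scaling by library totals, upper quartiles or DESeq2 size factors, 2 with no filter, 4 above 100 CPM and 13 with DESeq2's Wald test, and 0 to 1 when leaving out 1 library. None of these calls was a member. Upper-quartile scaling moved the median of all miRNAs from 0.03 to -0.11. The letters pair no libraries in the labels, and deviations of same-letter libraries correlated at 0.196, 0.138 and 0.06 (A, B and C). Every library was nearest its own letter, but these correlations are low, and whole C was at 0.031 with skimmed B. Whether the letters pair libraries was not tested and stays unknown. Without 1 library in turn, the difference in the log2 ratio of miR-103 to miR-107 ran from -0.86 to 1.01 and was below 0 without whole A (-0.16), whole C (-0.07), skimmed A (-0.86) or skimmed C (-0.11); that of miR-378 to the pair ran from -0.44 to -0.04, and that of the summed rows from -2367 to -1264 CPM. TMM over the 7 libraries moved the bovine log2 fold to -1.24 for miR-103 and -1.14 for miR-378. Depth limits miR-378b, miR-378c and miR-378d, which have at most a few reads in most libraries.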
